A study of Homo sapiens with 2 samples.

Results

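The small ribosomal subunit protein genes encode the proteins that build the smaller of the 2 ribosomal subunits. Members were taken by gene symbol and matched to the Ensembl identifiers of the deposited gene tables, and all 28 members were found among 57736 listed genes. The cells were HEK293T, a line derived from human embryonic kidney and transformed further with SV40 large T antigen. They were heated at 43 °C for 20 min and left to recover for 6 h at 37 °C. Poly(A)+ RNA was then read by RNA-Seq with reads of 50 bases. The series has 1 group of 2 libraries, replicate 1 and replicate 2, from separately lysed wild-type cells of this single line. Values of untreated cells were not analysed here, which leaves any effect of the heat shock unmeasured. Any p-value below compares these 2 libraries only.

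The small subunit binds the mRNA and reads its codons, and each of its proteins is placed once around a core of ribosomal RNA that is itself made from the rDNA repeats. In mammals most of these proteins are encoded by a single intron-containing gene, while many intronless processed pseudogenes, made by reverse transcription of the mRNA, are scattered over the genome. Most ribosomal protein mRNAs start with a C followed by a run of pyrimidines, the 5′ terminal oligopyrimidine tract, through which their translation answers to growth signals and stress.

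Replicate 1 held 22529828 expected counts and replicate 2 held 26890199. An expected count is the number of reads the quantifier gave to a gene after sharing ambiguous reads among genes. TPM, a normalised transcript abundance, is scaled to transcript length and to a fixed total, so it is the measure used to compare levels between genes. Of the 7 genes listed as markers of HEK293-type cells, 6 were matched, and each of the 6 reached 1 TPM in replicate 1 and in replicate 2. Of 8 kidney tubule and podocyte genes none reached 1 TPM in both libraries, and 4 of them were listed at 0 in both. Such a level was reached by 1 of 4 blood genes, by 2 of 4 fibroblast genes and by 0 of 2 liver genes.

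The sequences at the starts of the members show the tract, and they are given for the members on which the levels below turn. A window of 30 bases around the annotated start was found in RefSeq for 25 of 28 members, with coordinates on GRCh38.p14. All windows are written on the strand of the gene, with 15 bases before the start and 15 from it. Capitals mark the tract, read from the first transcribed base, and a window without capitals starts with another base than C.
RPS24, chr10:78033848-78033877, plus strand: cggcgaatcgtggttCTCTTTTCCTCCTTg
RPS21, chr20:62387088-62387117, plus strand: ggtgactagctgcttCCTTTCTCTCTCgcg
RPS3, chr11:75399503-75399532, plus strand: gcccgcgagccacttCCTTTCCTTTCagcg
RPS25, chr11:119018329-119018358, minus strand: tctgagcagcgcttcCTTTTTgtccgacat
RPS6, chr9:19380222-19380251, minus strand: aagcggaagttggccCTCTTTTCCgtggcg
RPS27, chr1:153990747-153990776, plus strand: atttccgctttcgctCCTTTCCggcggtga
RPS4X, chrX:72277234-72277263, minus strand: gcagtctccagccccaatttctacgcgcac
RPS26, chr12:56041903-56041932, plus strand: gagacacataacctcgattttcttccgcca
RPS28, chr19:8321481-8321510, plus strand: tccccgaagcacgtgactcctctccgccag
RPS27L, chr15:63157463-63157492, minus strand: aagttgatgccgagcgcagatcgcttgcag

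A tract was counted where the first base was C and at least 5 bases in a row, that C included, were C or T. It was found in 18 of the 25 windows (72%), in 25 of 38 windows of large subunit protein genes (65.8%), and in 1429 of 35116 windows of all genes (4.07%). RPS24 had the longest, of 14 bases, and RPS21 followed with 12. The 7 windows without it were those of RPS4X, RPS7, RPS15, RPS26, RPS27L, RPS28 and RPS29. In RPS7 the run ended after 3 bases and in RPS15 after 1. These letters describe 1 annotated start per gene, and their absence says only that they are not at that base.

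Small subunit protein mRNAs were among the abundant transcripts of the recovering cells. They held 3.95% of TPM in replicate 1 and 3.35% in replicate 2, or 3.65% ± 0.43 (SD, n = 2). Of the 28 members, 11 had a mean TPM of at least 1000, and 11 were among the 100 highest of all listed genes. A further 14 lay within the first 526 ranks. The other 3 members, RPS26, RPS28 and RPS27L, stood far lower, at ranks 6334, 8682 and 8714. Between the members of highest and lowest mean TPM, RPS2 and RPS27L, mean TPM differed 685-fold. In replicate 2 alone RPS28 was the lowest, at 8.73 TPM against 11.5 TPM for RPS27L.

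**Figure D1:**
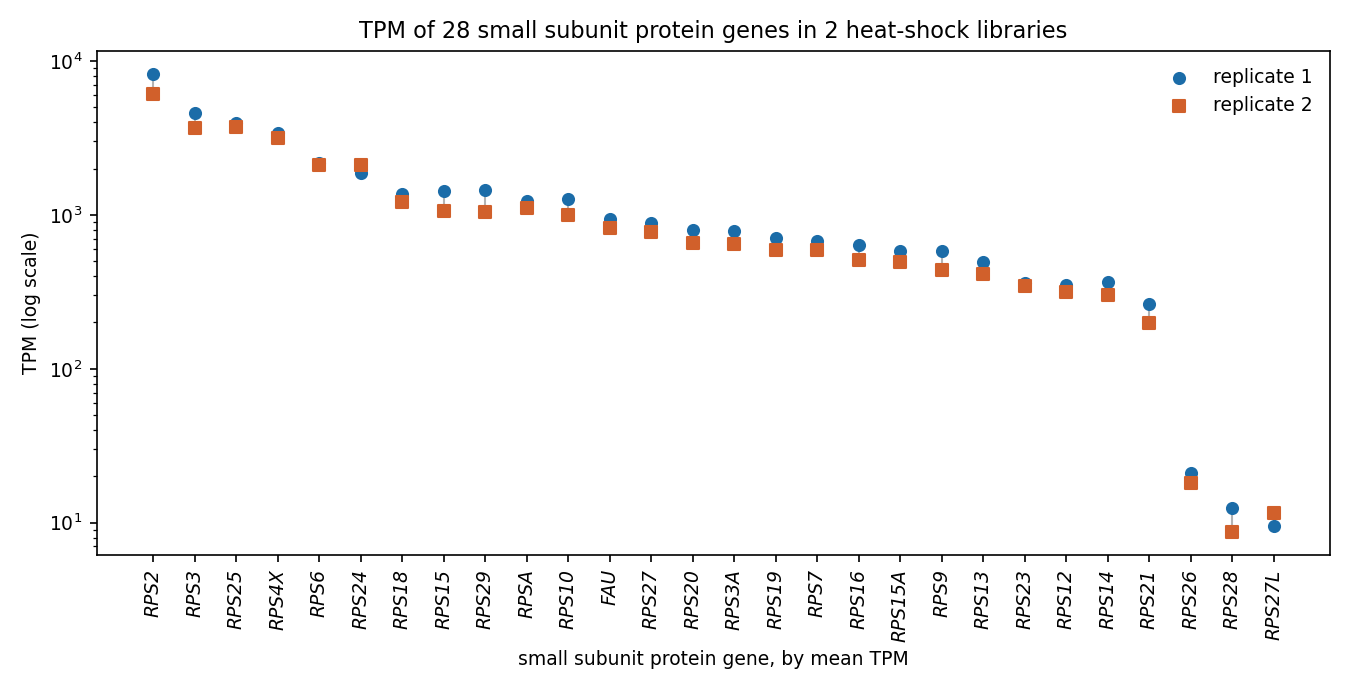
TPM of each of the 28 small subunit protein genes (log axis) in replicate 1 (circles) and replicate 2 (squares), ordered by mean TPM, with a grey line joining the 2 libraries. In both libraries 25 genes lie above 100 TPM and RPS26, RPS28 and RPS27L lie below 25 TPM.

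RPS2, whose protein lies near the mRNA entry channel, led the group. It was read at 8282 TPM in replicate 1 and 6145 TPM in replicate 2, a mean of 7213 ± 1511 (SD, n = 2) and rank 10 among all genes. The gene is at chr16:2012059-2014842 on the minus strand (GRCh37). Its lower library still exceeded the higher library of RPS3, the next gene.

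RPS3, a protein of the mRNA entry channel that has also been studied in DNA repair, was read at 4589 and 3660 TPM. RPS25, known for its part in initiation at viral internal ribosome entry sites, was read at 3982 and 3751 TPM. The ranges of these 2 genes overlapped. RPS4X, the X-linked copy of its family, followed at 3411 and 3146 TPM, below both libraries of RPS25. The 4 highest genes held 51.2% of all member TPM in replicate 1 and 49.9% in replicate 2.

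RPS6, the classical substrate of the ribosomal protein kinases downstream of mTOR, was read at 2186 TPM in replicate 1 and 2104 TPM in replicate 2. RPS24, one of the genes mutated in Diamond-Blackfan anaemia, an inherited failure of red cell production, was read at 1878 and 2106 TPM. Their ranges overlapped, and RPS24 was 1 of 2 members with the higher value in replicate 2.

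The next 5 genes lay between 1002 and 1453 TPM in both libraries, and no 2 neighbours among them were separated. RPS18, a protein of the head of the subunit, had a mean of 1285 ± 112 TPM, and RPS15, also of the head, had 1250 ± 258 TPM. RPS29, a small zinc-binding protein, had 1245 ± 294 TPM. RPSA, also known as the laminin receptor, had 1175 ± 90.2 TPM, and RPS10, which is ubiquitinated when ribosomes collide, had 1133 ± 186 TPM (SD, n = 2 for each).

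A middle group ran from FAU down to RPS13. FAU, which encodes a ubiquitin-like protein fused to a small subunit protein, was read at 938 and 825 TPM, below both libraries of RPS10. RPS27, a zinc-finger protein, was read at 882 and 773 TPM. RPS20, another target of ubiquitin ligases at collided ribosomes, had a mean of 730 ± 99.5 TPM and RPS3A had 718 ± 96.2 TPM. RPS19, the gene most often mutated in Diamond-Blackfan anaemia, was read at 704 and 589 TPM. RPS7, which joins early in assembly, had a mean of 633 ± 58.1 TPM and RPS16, whose tail reaches the tRNA in the decoding site, had 573 ± 90.6 TPM. RPS15A had 537 ± 62.4 TPM, RPS9, a protein of the mRNA entry channel, had 510 ± 97.9 TPM and RPS13 had 452 ± 57.5 TPM. No neighbours within this run were separated in their ranges.

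The lowest of the abundant members were RPS23, RPS12, RPS14 and RPS21. RPS23, which lies at the decoding centre, was read at 362 and 344 TPM, both below RPS13. RPS12 was read at 351 and 317 TPM. RPS14, one of the genes lost in the deletion of the long arm of chromosome 5 in myelodysplasia, was read at 364 and 303 TPM. RPS21, a small protein that sits beside RPSA and RPS2 in the subunit, was read at 263 and 197 TPM, below both libraries of RPS14. RPS2 exceeded RPS21 31.3-fold in mean TPM. In all, 18 of the 27 pairs of neighbours in this order had ranges that overlapped between the libraries.

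The order followed the length scaling only in part. Spearman's rho between mean TPM and mean counts scaled to library totals was 0.935 over the 28 members, and that between mean TPM and transcript length was -0.13. Both are descriptions across genes, which share the same libraries.

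RPS27L, a close paralog of RPS27 that is induced by the p53 tumour suppressor, stood far below it. RPS27 is at chr1:153963238-153964631 and RPS27L at chr15:63418071-63450220 (GRCh37). RPS27L was read at 9.52 TPM in replicate 1 and 11.5 TPM in replicate 2, from 106 and 147 expected counts. RPS27 exceeded it 92.7-fold in replicate 1 and 67.1-fold in replicate 2. The coding sequences are shown because they set how well reads of this pair can be told apart. They are given without the stop codon, from the GENCODE transcripts of GRCh37. Capitals mark the bases that differ.
RPS27: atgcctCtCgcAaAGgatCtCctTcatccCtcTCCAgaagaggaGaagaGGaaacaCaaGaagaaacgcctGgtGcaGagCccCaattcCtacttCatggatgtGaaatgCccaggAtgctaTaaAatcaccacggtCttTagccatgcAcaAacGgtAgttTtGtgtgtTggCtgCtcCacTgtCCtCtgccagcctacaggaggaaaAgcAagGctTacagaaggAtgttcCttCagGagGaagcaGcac
RPS27L: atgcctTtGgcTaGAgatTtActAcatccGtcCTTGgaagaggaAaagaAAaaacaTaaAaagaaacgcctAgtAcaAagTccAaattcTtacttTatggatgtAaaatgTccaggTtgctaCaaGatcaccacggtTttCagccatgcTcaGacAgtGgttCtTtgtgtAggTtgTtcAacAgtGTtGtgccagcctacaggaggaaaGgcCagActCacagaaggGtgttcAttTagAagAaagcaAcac

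The 2 sequences of 252 bases differed at 56 positions (77.8% identical), and the longest run without a difference was 20 bases. No sequence of the read length was therefore common to both coding regions. RPS27L had no pseudogene named after it, and none of its coding 50-base sequences occurred in a pseudogene. Its posterior SD, the uncertainty of the quantifier about how many reads belong to a gene, was 0.113% of the expected count in replicate 1 and 0.177% in replicate 2.

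RPS26 and RPS28, the other 2 low members, encode proteins at the mRNA exit channel. RPS26, at chr12:56435135-56438481 (GRCh37), was read at 21.1 TPM in replicate 1 and 18.0 TPM in replicate 2, from 319 and 331 expected counts. RPS28, at chr19:8386042-8388224, was read at 12.4 and 8.73 TPM, from 223 and 210 expected counts. Even RPS21, the next member up, exceeded RPS26 11.8-fold in mean TPM. RPS26 and RPS28 were also the only members whose posterior SD exceeded 1% of the expected count in both libraries, at 5.98% and 5.50% for RPS26 and at 4.18% and 3.80% for RPS28.

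For each of the 2 genes the tables listed an abundant pseudogene. ENSG00000196656, a transcribed processed pseudogene without a symbol, lies at chr4:114135202-114138326 on the minus strand, in an intron of ANK2 and opposite to it in strand. It was read at 2102 TPM in replicate 1 and 1720 TPM in replicate 2, or 99.8-fold and 95.3-fold the TPM of RPS26. RPS28P7, a processed pseudogene, lies at chr11:82400601-82400810 on the plus strand, in an intron of the lncRNA gene MIR4300HG and opposite to it. It was read at 1297 and 997 TPM, or 104-fold and 114-fold the TPM of RPS28. In every one of these pairs the copy stood above its member in both libraries.

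The reference sequences of these pairs were compared base by base. Over the 345 coding bases of RPS26 the copy ENSG00000196656 had 0 substitutions, and over the 207 coding bases of RPS28 the copy RPS28P7 had 0. They are printed once for each pair, since member and copy do not differ, whole for RPS28 and as the first 210 bases for RPS26. Capitals mark where the next pseudogene shown differs, with positions counted from 1 at the A of the start codon: T66C in RPS28P4, and C75A and G148A in RPS26P58, with the base of the member written first.
RPS28 and RPS28P7: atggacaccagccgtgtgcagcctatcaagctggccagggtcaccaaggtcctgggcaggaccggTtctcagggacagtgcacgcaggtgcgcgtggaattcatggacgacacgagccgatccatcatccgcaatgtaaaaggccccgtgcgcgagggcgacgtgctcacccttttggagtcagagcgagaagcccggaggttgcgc
RPS26 and ENSG00000196656: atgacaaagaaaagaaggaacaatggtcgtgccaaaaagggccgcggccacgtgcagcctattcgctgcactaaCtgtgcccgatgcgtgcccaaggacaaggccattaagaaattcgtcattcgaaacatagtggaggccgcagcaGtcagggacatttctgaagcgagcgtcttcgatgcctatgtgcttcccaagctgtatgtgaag

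A read of 50 bases inside either coding sequence therefore matches the member and the copy equally. The quantifier gave RPS26 2.59% of the summed counts of itself and its copy, and RPS28 2.97%. The listed transcripts differed in length. RPS28 was listed with 4 transcripts of 334 to 1523 bases, of which 1, of 1330 bases, was protein-coding, and its mean length in the tables was 1031 bases in replicate 1 and 1208 in replicate 2. RPS28P7 had a length of 361 and 374 bases. RPS26 had a length of 879 and 933 bases against 377 and 380 for its copy. RPS28 also shared 294 sequences of 50 bases with KANK3 on the opposite strand, and the sources used here do not state whether strand was used in counting. Whether the counts of the copies came from the members was not tested.

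With the TPM of all pseudogenes that shared at least 100 sequences of 50 bases added to each member, RPS26 stood at 1937 ± 268 TPM (SD, n = 2) and moved from 26th to 7th of the 28 members. RPS28 stood at 1158 ± 215 TPM and moved from 27th to 12th. The number of members with a mean TPM of at least 1000 then rose from 11 to 13, and RPS27L alone stayed under 100 TPM. Without RPS27L, the fold between the highest and the lowest member fell from 681 to 33.5 when the copies were added.

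**Figure D2:**
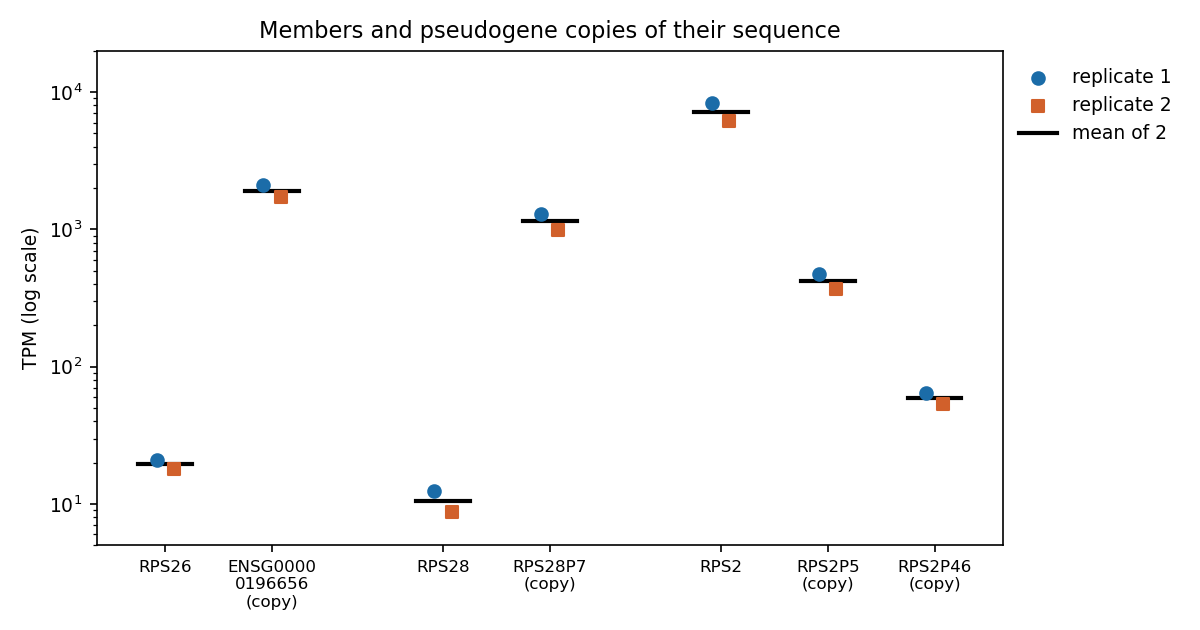
TPM (log axis) of RPS26, RPS28 and RPS2 beside pseudogene copies of their sequence, in replicate 1 (circles) and replicate 2 (squares), with bars at the mean of 2 libraries. The copies of RPS26 and RPS28 stand near 1911 and 1147 TPM, above their members, whereas RPS2P5 at 420 TPM stands below RPS2.

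RPS2 showed the opposite arrangement. RPS2P5, at chr12:118683889-118684767 in an intron of TAOK3 and on the other strand, was read at 474 TPM in replicate 1 and 367 TPM in replicate 2. This was 0.0572-fold and 0.0597-fold the TPM of RPS2. RPS2P46, in an intron of a lncRNA gene on chromosome 17, was read at 64.3 and 53.6 TPM. RPS2P5 differed from the 879 coding bases of RPS2 at 11 positions, of which C32A and G36A fall in the first 60 bases, in capitals here.
RPS2: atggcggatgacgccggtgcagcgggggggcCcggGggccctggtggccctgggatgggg

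The posterior SD of RPS2 was 0.131% of its expected count in replicate 1 and 0.139% in replicate 2, against 127 of 7184 and 115 of 6331 counts for RPS2P5. Another pseudogene, ENSG00000255513, overlaps the exons of RPS2 itself and was read at 18.1 and 13.9 TPM.

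Pseudogenes were also counted over all members. The tables listed 450 pseudogenes named after 27 of the 28 members, and 237 of them had 0 counts in both libraries. Together they held 3.71% of the counts of members and pseudogenes in replicate 1 and 3.58% in replicate 2, and a mean of 0.52% without those named after RPS2 and RPS28. These named pseudogenes do not include ENSG00000196656. Pseudogenes of any name that shared at least 100 sequences of 50 bases held 5.82% and 5.54%. Of the named pseudogenes, only 5 had at least 100 counts in both libraries: RPS28P7, RPS2P5, RPS2P46, RPS26P19 and RPS4XP22. For 25 members the named pseudogenes together came to less than 2% of the member's own count.

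RPS26P19 held 734 and 735 counts, more than RPS26 itself, but it shared no 50-base sequence with RPS26, and it overlaps an exon of POLR2D on the same strand. RPS4XP22 held 866 and 978 counts, or 0.99% of those of RPS4X, and also shared no such sequence with the member. RPS16P9 held 59.0 and 58.0 counts, or 1.02% of those of RPS16, and shared none either. These 3 pseudogenes thus bear the name of a member without holding any sequence of the read length in common with it.

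Identity to pseudogenes differed widely among the members. All 50-base sequences of the coding region occurred in pseudogenes for RPS10, RPS26, RPS27 and RPS28, and 98.9% did for RPS3A. RPSA followed with 80.9% and RPS2 with 77.9%. At the other end were RPS27L with 0%, RPS21 with 1.5% and RPS19 with 2.07%. The median over the members was 45.7%. RPS10 and RPS27 shared as much as RPS26 and RPS28 did, and no pseudogene contained their coding sequence whole. Their posterior SDs were under 1% of the count, between 0.149% and 0.302%, but this contrast does not hold in counts. In replicates 1 and 2 the posterior SD was 32.3 and 37.9 counts for RPS10, above 19.1 and 18.2 for RPS26. For RPS27 it was 7.39 and 8.53 counts, beside 9.33 and 7.98 for RPS28. RPS26 and RPS28 had far fewer expected counts to take the percentage of.

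Spearman's rho between this share and the posterior SD in percent of the count was 0.70 over the 28 members. It is a description across genes, since both measures follow the same reference sequences. The posterior SD was under 1% in both libraries for 26 members and under 0.1% for 15.

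**Figure D3:**
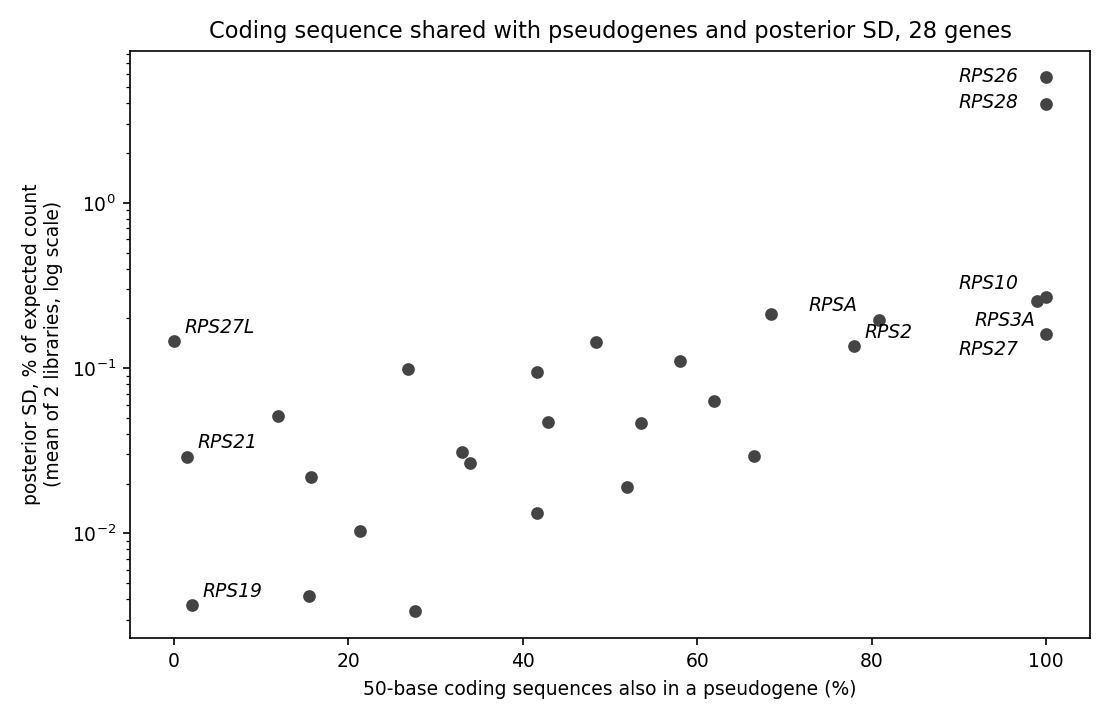
Percent of the 50-base sequences of each coding region that also occur in a pseudogene (x axis) against the posterior SD in percent of the expected count (y axis, log scale, mean of 2 libraries) for the 28 members. RPS26 and RPS28 stand above 1%, while RPS10, RPS27 and RPS3A with nearly the same sharing stand below it. The percentages are of each member's own count, which was low for RPS26 and RPS28.

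RPS10 also shared 50-base sequences with a gene that is not a pseudogene, as some other members did. The readthrough gene RPS10-NUDT3, at chr6:34252664-34393848, shared 335 sequences of 50 bases with RPS10 and was read at 49.1 TPM in replicate 1 and 58.5 TPM in replicate 2. Its posterior SD was 38.9 of 742 counts and 45.5 of 1006 counts. Its log2 ratio between the libraries was 0.16, with an adjusted p of 0.0589 by the exact binomial test described next, whereas RPS10 had a log2 ratio of -0.43.

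The members were then compared between the 2 libraries by the exact two-sided binomial test per gene, with Benjamini-Hochberg adjustment over 19714 genes with 10 or more counts in the sum of the libraries. It takes reads as independent and has 1 library on each side, so its p covers counting error only and not the spread between cultures. Of the 28 members, 26 passed the threshold of 0.05, where 42.2% of all tested genes did. Since deep genes pass more often, the 7974 genes whose summed count was 1000 or more were also taken as a background: 70.6% of them passed, as did all 25 members of that depth. Of these 25 members 24 were higher in replicate 1, where 39.4% of the deep genes were, and 1 was higher in replicate 2, where 31.3% were. Over all depths, higher in replicate 1 were 25 members, against 20.1% of all tested genes, and higher in replicate 2 was 1, RPS24, against 22.1%. RPS26 and RPS27L did not pass, at adjusted p of 0.095 and 0.463. An exact test in edgeR, for which a biological coefficient of variation of 0.1 was assumed, called 0 members, with 8 at an unadjusted p under 0.05 and a lowest adjusted p of 0.0706, where it called 1516 of 19714 genes (7.69%).

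The log2 ratio of replicate 2 over replicate 1, scaled by TMM, had a median of -0.33 over the members, against -0.02 over 13840 genes whose summed count was 100 or more. It was below 0 for 26 members and for 52.1% of those genes. The ratio ranged from -0.57 for RPS29, which was read at 1453 and 1037 TPM, to 0.19 for RPS27L. RPS15, RPS2 and RPS21 had ratios of -0.52, -0.51 and -0.50. RPS24 had a ratio of 0.07, with an adjusted p of 1.25e-05 in the binomial test, for counting error only. That call was lost in the edgeR exact test. On the TPM scale the values of 26 members were lower in replicate 2, where 40.9% of all genes were.

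The ratios moved with the GC content of the transcripts, over the members as over all genes. Pearson's r between the ratio and GC content was -0.58 and Spearman's rho was -0.53 over the 28 members, as a description across genes of 1 pair of libraries. RPS27L had the lowest GC content, 41.1%, and RPS15 the highest, 62.2%. Their median, 49.3%, was close to the 49.2% of all genes. Nearly all members nonetheless lay below the trend of genes with the same GC content, 27 of 28, with RPS24 as the exception. Of the genes that met the count minimum for ratios, 53.95% lay below the trend. With the trend removed, the median ratio was -0.28 over the members, against -0.02 over 13619 such genes. In the test 24 members then passed, all higher in replicate 1, against 27.5% of 19242 genes. That last share covers both directions and all depths. Shares of passing genes by direction or for deep genes were not taken with the trend removed. RPS24 and RPS28 no longer passed.

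**Figure D4:**
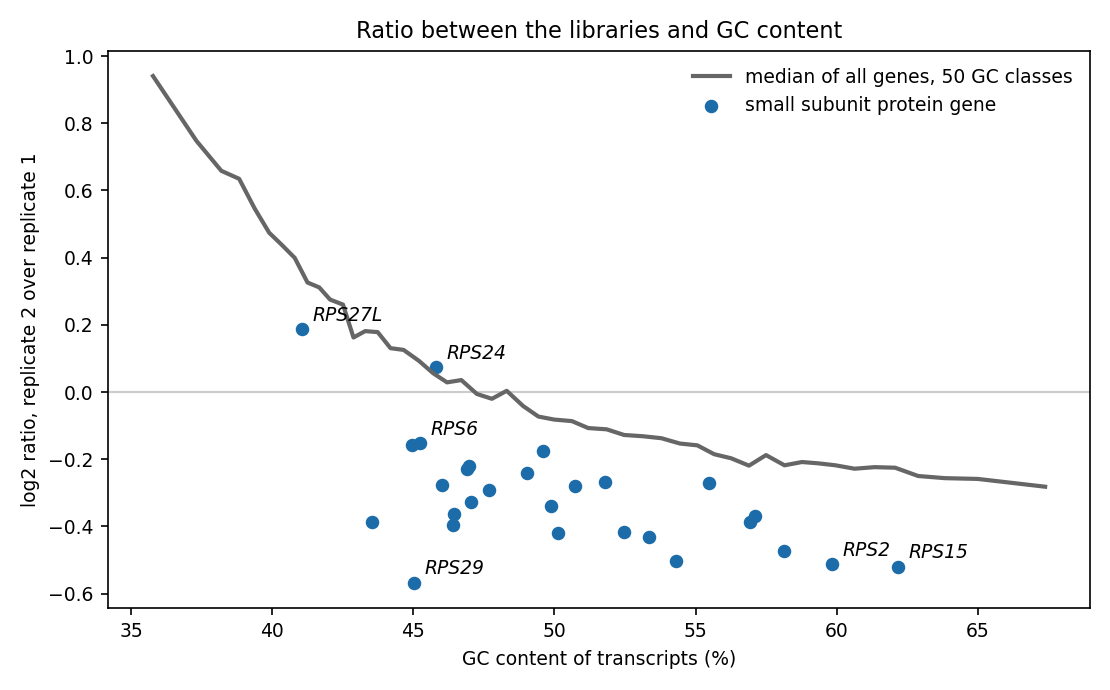
Log2 ratio of replicate 2 over replicate 1 (y axis, TMM-scaled counts) against the GC content of the transcripts in percent (x axis) for the 28 members (points), with the median of all genes in 50 GC classes (line). All points but RPS24 lie below the line, and RPS27L and RPS24 are the 2 points above 0.

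The 46 matched genes of the large subunit list, which encode the proteins of the partner subunit, gave the closest comparison. They held 7.26% of TPM in replicate 1 and 6.25% in replicate 2. Their median of mean TPM was 1398, against 724 for the small subunit genes, and 32 of 46 had at least 1000 TPM. The highest were RPL4, at 4439 and 3973 TPM, and RPL37A, at 3333 and 2647 TPM. The lowest were RPL22, at 218 and 241 TPM, and RPL21, at 68.9 and 71.6 TPM. RPL21 was the only one of them under 100 TPM, where the small subunit had 3, or 1 with the copies added. Copies were not added to the large subunit genes, so that last count has no counterpart there. The posterior SD of RPL21 was 61.3 of 804 counts in replicate 1 and 72.5 of 921 in replicate 2, and 7 genes of this list exceeded 1% of the count in both libraries. Between the libraries their median log2 ratio was -0.32, and of 45 that passed the binomial test 41 were higher in replicate 1 and 4 in replicate 2. Among all genes with a summed count of 1000 or more, 70.6% passed, with 39.4% higher in replicate 1 and 31.3% higher in replicate 2.

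The transcripts of the factors that assemble the small subunit were far less abundant, by median, than those of its proteins. All 19 genes of this list had at least 1 TPM in both libraries, with a median of mean TPM of 49.8 and 0.113% of all TPM. The median of the members was 724, though RPS26, RPS28 and RPS27L stood below that of the assembly genes. NOB1, the endonuclease that makes the end of the mature 18S rRNA, was highest at 177 TPM in replicate 1 and 162 TPM in replicate 2. NOP14, a part of the early small subunit precursor, followed at 130 and 114 TPM. The lowest were RRP12, at 22.3 and 20.4 TPM, and RIOK2, a kinase of the late precursor, at 8.70 and 13.2 TPM. Of the 15 that passed the test between the libraries, 10 were higher in replicate 1 and 5 in replicate 2, beside 20.1% and 22.1% of all tested genes. Most of the 19 genes had a summed count of 1000 or more. Among all genes of that depth the shares were 39.4% and 31.3%.

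Several members carry small nucleolar RNA genes inside them, RNAs that guide the modification or cleavage of ribosomal RNA. Of the 28 members, 8 did (28.6%), with 15 such genes, where 407 of 19391 listed protein-coding genes did (2.1%). The hosts were RPSA, RPS2, RPS3, RPS3A, RPS7, RPS12, RPS13 and RPS20. In these libraries of poly(A)+ RNA 7 of the 15 had 0 counts in both libraries and 14 had fewer than 5. A count of 0 allows up to 3 counts, for counting error only. The exception was SNORA73 within RPS7, with 43.8 and 52.9 expected counts, and it shared 114 sequences of 50 bases with the transcripts of RPS7.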

How the data were processed

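The 2 replicate tables and 1 table of the whole series were used. Per the labels, reads were trimmed with Trimmomatic 0.36, aligned with STAR 2.6.1c and quantified with RSEM 1.3.1 on hg19, whereas the methods name featureCounts. The authors deposited expected counts, in which reads matching several genes were shared among them, and TPM values, scaled to length and to 1 total. The posterior SD and credibility bounds deposited by the authors are signal values of the same quantifier. No deposited column went unused for lack of a sample (0 columns).

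Expected counts were rounded for the tests. Libraries were scaled with edgeR 4.0.16 TMM factors, and log2 ratios used a pseudocount of 0.5. The exact binomial test took its expected share from the scaled totals. It was checked only on simulated counts with counting error alone, which cannot show how it behaves where libraries vary more than that. The GC trend was the median ratio in 50 GC classes. Positions, biotypes and transcripts came from GENCODE on GRCh37, of another release than the authors used, and 96.1% of gene identifiers matched. Sequences of 50 bases, the read length, were compared between transcripts on both strands. A pseudogene sharing at least 100 of them with a member was called a copy, and one named after a member has its symbol followed by P and a number. Error is the SD of 2 libraries, which may be technical.

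The text names all members, the pseudogene with the most counts of each where it reached 1% of the member, RPS10-NUDT3, the small nucleolar RNA hosts, and the 2 highest and 2 lowest genes of the large subunit and assembly lists. ENSG00000196656, ENSG00000255513, RPS2P46, RPS4XP22, RPS28P4, RPS26P58 and KANK3 were chosen after their values were seen. The members and lists were chosen with earlier results of these data known. Alternatives covered units, scalings, thresholds, the count minimum, an edgeR exact test, and leaving out each replicate. DESeq2 1.42.0 gave size factors for 1 of them.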

Additional observations from a re-analysis of the deposited data

How the results depend on the processing

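No paired analysis was possible because there is only 1 group, with no second group to pair. The share of TPM held by the members was 1.87% of expected counts and 4.52% with nuclear copies of mitochondrial genes left out of the total, and ran from 3.35% to 3.95% with 1 replicate left out. The fold between the highest and lowest member ran from 704 to 870 with 1 replicate left out, and was 33.5 without RPS27L and with the copies added. The lowest member was RPS28 in replicate 2, for the 704, and RPS27L in replicate 1, for the 870. The number of members of at least 1000 TPM was 20 at a TPM of 500 and 5 at 1000 counts scaled to library totals (CPM), and was 11 with either replicate left out. The median log2 ratio kept its sign, at -0.31 by library totals, -0.35 by DESeq2 size factors, -0.25 by TPM and -0.28 without the GC trend. The number of members that passed the test was 26 by library totals, by DESeq2 size factors and without a count minimum, where 41.5%, 42.5% and 7870 of 31457 genes passed. It was 0 by the edgeR exact test (8 at an unadjusted p under 0.05), which called 7.69% of all genes. A posterior SD over 5% left 1 member, RPS26, and either library alone gave 2 members over 1%. The share of named pseudogenes was 4.95% by TPM, 5.68% for copies of any name, 0.52% without those named after RPS2 and RPS28, and 3.58% to 3.71% with 1 replicate left out. The alternatives with copies added, without RPS27L, and without the pseudogenes of RPS2 and RPS28 were chosen after seeing the data.

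With 2 libraries of 1 group, no effect of heat shock, batch or culture can be separated. Depth limits RPS27L most, at 106 and 147 counts. The deposited TPM lay above the quantifier's own credibility interval in both libraries for 15 members and inside it for 7, so these intervals, which surround a posterior mean, were not used as errors of the TPM.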

Other observations

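The authors' values in the table that covers the series as a whole gave each of the 28 members an expected count within 1% of the sum of the 2 libraries. For RPS26 it listed 650.2 counts and for RPS28 433.2. As a sum of the libraries, these values add nothing independent on the level of either gene. The credibility intervals of TPM from the 2 libraries did not overlap for 24 members. The share over all genes was not computed, so this count does not set the members apart from other genes of their depth. The intervals overlapped for RPS23, RPS26, RPS28 and RPS27L.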
